A study of Mus musculus with 48 samples.

Results

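The genes described here carry out bile acid synthesis, bile acid conjugation and bile acid transport in the liver, together with the nuclear receptor FXR and its partner SHP, which regulate them. Members were the 10 gene names Cyp7a1, Cyp8b1, Cyp27a1, Cyp7b1, Cyp39a1, Nr0b2, Nr1h4, Slc27a5, Slc10a1 and Abcb11, found as the gene name of any non-control probe, which gave 14 probes out of 56605 probes and 37074 gene names on the array. All 14 probes were among the 33323 that were tested. Total liver RNA of male C57Bl6J mice was hybridised to 48 one-colour Agilent arrays, 8 for each of 6 groups formed by 3 genotypes and 2 diets. The question was how the liver responds to a high fat diet when the lipid-sensing nuclear receptor PPARα is intact, absent from hepatocytes or absent from the whole body.

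WT mice (labelled PPARaWT) carried intact Ppara, LKO mice (PPARaLKO) lacked it in hepatocytes and KO mice (PPARaKO) lacked it in every cell. Each genotype ate a control diet, abbreviated CTRL, or a diet of 60% fat, abbreviated HFD, and by the labels every group was fed for 12 weeks and was 20 weeks old, a feeding time that differs from that in the study's methods. By those methods the hepatocyte deletion came from Cre under the albumin promoter acting on floxed Ppara, all mice were kept at thermoneutrality and killed in the fed state, and WT animals were purchased whereas both mutant lines were bred locally, so that genotype and origin cannot be told apart. Arrays were washed in 2 batches, with 4 arrays of each WT and KO group in each batch, 3 and 5 of LKO CTRL and 5 and 3 of LKO HFD.

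Levels are log2 normalised signal of 1 probe, and no probe's level is set against another's. A difference is the log2 fold change fitted by limma with a term for wash batch and a weight for each array, so it can depart from the difference of plain group means. A difference was called at an adjusted p (Benjamini-Hochberg over all tested probes of a comparison) of at most 0.05. Whether replicates of a group came from separate cages or litters is not given in the sources used here, and p-values measure the spread between these arrays. Comparisons of several genotypes or diets share groups, so their values are set side by side and not counted as independent. In whole liver, fewer cells of a type and less RNA per cell cannot be told apart.

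Each array had 28234 to 38217 spots well above background, and no spot was saturated. The summed level of 6 hepatocyte markers lay between 20.52 and 20.74 on all arrays, a sum led by Alb at the top of the scale (median 18.93, also the highest value in 5 of 6 groups), where quantile normalisation leaves little room to vary. The brighter Ppara probe was lower on CTRL in KO (-0.65, adjusted p = 1.1e-06) and in LKO (-0.42, adjusted p = 0.000887) than in WT, and on HFD its WT arrays overlapped neither mutant group. A second Ppara probe was lower on CTRL in KO (-1.11, adjusted p = 5.27e-13) but not called in LKO (-0.10, adjusted p = 0.454), was lower in both on HFD (-1.29 and -0.68), and was higher on HFD than on CTRL in KO (0.30, adjusted p = 0.00636), where the brighter probe was not called (0.090). Signal remained in both mutants. The study's methods name the exon deleted from the floxed gene, and the brighter and second probes start at bases 2273 and 7356 of the transcript. Where that exon lies in the transcript, and which part is deleted in KO, is not given in the sources used here. Array weights ran from 0.189 to 2.53, and 5 arrays had a weight under 0.5, which were replicate 1 of LKO CTRL, replicate 6 of WT CTRL, replicates 2 and 6 of WT HFD and replicate 3 of KO CTRL.

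Bile acids are made from cholesterol in hepatocytes by a classical route that CYP7A1 opens and by an alternative route in which side-chain oxidation by CYP27A1 comes first, and CYP8B1 adds the hydroxyl group that makes cholic acid. The products are activated and conjugated to taurine or glycine, pumped into bile by BSEP (Abcb11), reabsorbed in the ileum and taken up again from portal blood by NTCP (Slc10a1). Bile acids bind FXR (Nr1h4), which induces SHP (Nr0b2) and Abcb11, and SHP restrains Cyp7a1 and Cyp8b1. Liver PPARα is best known as the receptor that switches on fatty acid oxidation genes.

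Probe sequences are given for 4 of the members described below, with Cyp7a1 among them as the enzyme that opens the classical route. The Cyp8b1 probe, given whole because this gene had the largest dietary change of the 10 in WT, was designed on the minus strand at chr9:121824595-121824654 of mm9. The other lines give bases 31 to 60 of the probes of Cyp39a1 (chr17:43887735-43887794, plus strand), Abcb11 (chr2:69076390-69076449, minus strand) and Cyp7a1 (chr4:6193456-6193515, minus strand), where the coordinates are those of the whole probe.
Cyp8b1 probe: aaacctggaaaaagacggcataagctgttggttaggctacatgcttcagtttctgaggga
Cyp39a1 probe, bases 31 to 60: gtcttaagagatgaataaataaatcaatgg
Abcb11 probe, bases 31 to 60: aggaaatctatgcaagcaatggaaatgcat
Cyp7a1 probe, bases 31 to 60: gaactgaatgtatccacataccttcccatg

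The members called on the high fat diet were not the same in the 3 genotypes, and the counts moved with the processing in each of them. In WT 5 of the 10 genes passed, 3 higher (Cyp7a1, Cyp8b1, Nr1h4) and 2 lower (Cyp39a1, Abcb11), where 18.7% of all tested probes passed (8.60% higher, 10.1% lower). In LKO all 4 that passed were lower (Cyp27a1, Nr0b2, Slc27a5, Abcb11), against 20.2% of all probes (9.46% higher, 10.8% lower). In KO Cyp39a1 was higher and Cyp27a1, Cyp7b1 and Abcb11 were lower, 4 genes in all, against 24.8% of all probes (12.2% higher, 12.6% lower). Abcb11 was the only member called in all 3 genotypes, and the median log2 difference over the 10 genes was 0.043 in WT, -0.15 in LKO and -0.0044 in KO beside -0.011, -0.013 and -0.018 over all probes. Without array weights 3 members were called in WT and 0 in LKO, within wash batch 1 they were 2 and 0, and the WT count was 2 without replicate 5 of WT HFD and 3 without replicate 7 of WT HFD or replicate 1, 2, 4 or 5 of WT CTRL. With the processed signal scaled to each array's 75th percentile, in place of the median signal with quantile normalisation, the share of higher calls among all called probes in LKO was 34.6% in place of 46.8%. In KO 4 members were called without array weights, 2 in wash batch 1, 5 in wash batch 2 and 6 with the scaled processed signal. How calls over all probes moved without weights or within a wash batch is not given here.

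**Figure D1:**
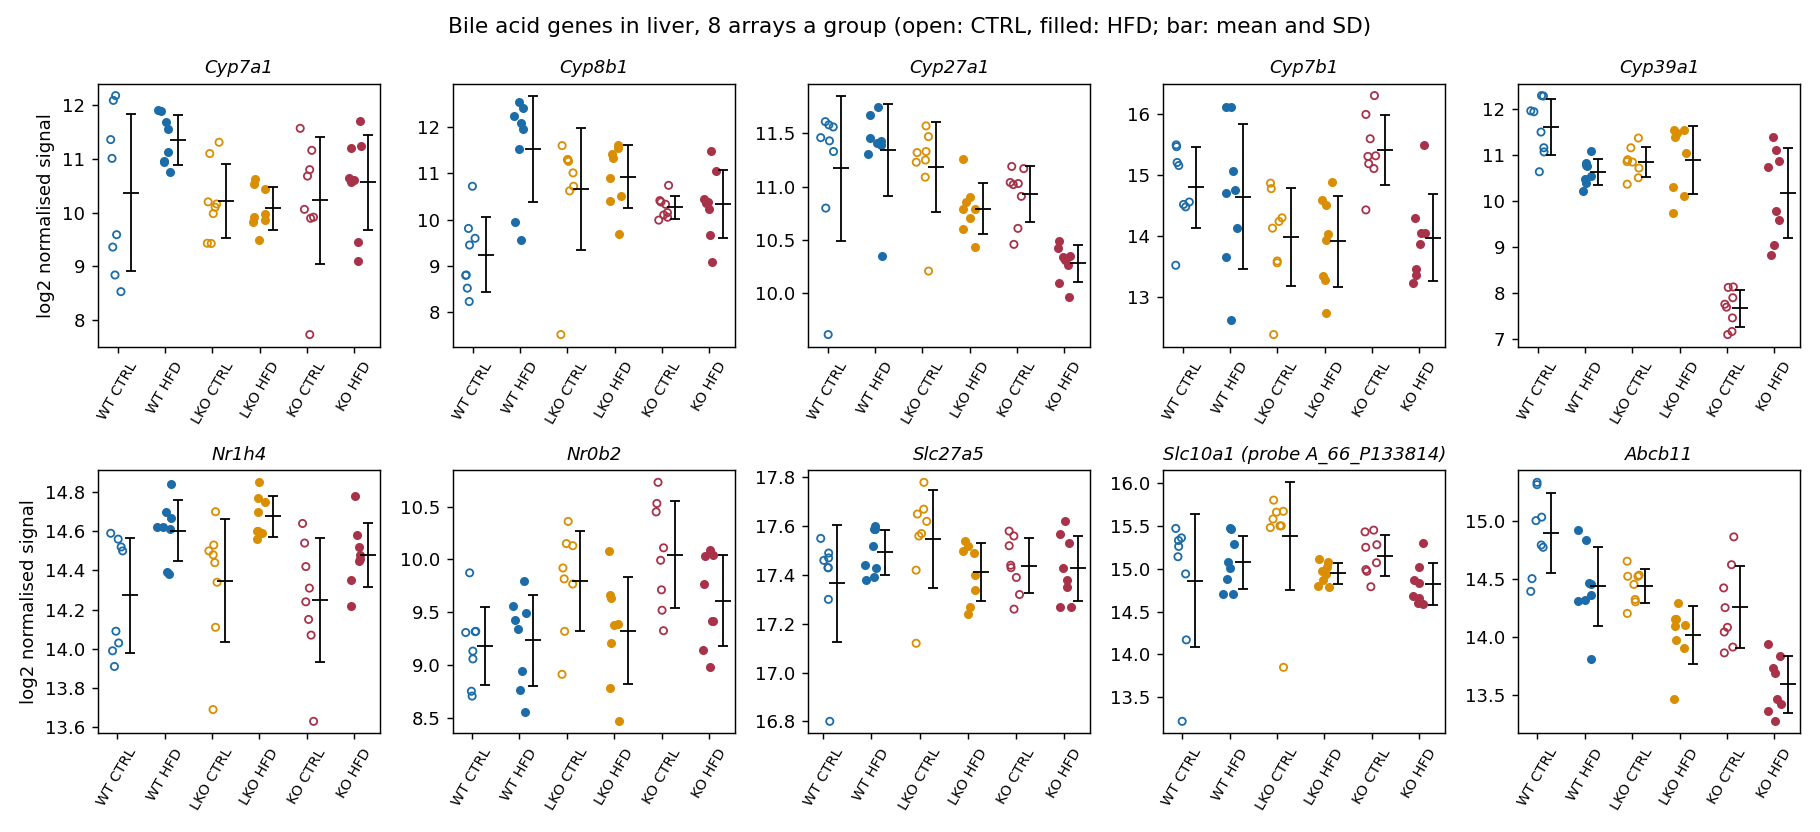
Log2 normalised signal of each of the 10 genes on all 48 arrays, 1 panel a gene with its own vertical axis, arrays grouped by genotype and diet. The WT CTRL arrays of Cyp8b1 lie lowest by group median (9.12) and its WT HFD arrays highest (12.02), and the KO CTRL arrays of Cyp39a1 (7.10 to 8.14) lie below every other array of that gene.

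Cyp8b1, the sterol 12α-hydroxylase that sets how much cholic acid is made, had the largest dietary response of the members in WT and gave no called response in either mutant. In WT its level ran from 8.23 to 10.72 on CTRL (median 9.12) and from 9.55 to 12.55 on HFD (median 12.02). Every WT HFD array lay above the mean of WT CTRL, although the highest CTRL array exceeded the lowest HFD array. The fitted difference was 2.65 (SE 0.36, 95% confidence interval 1.93 to 3.37), a 6.28-fold rise with adjusted p = 1.33e-06. Within the wash batches it was 3.13 (adjusted p = 0.000361) and 2.29 (adjusted p = 0.0185).

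In the mutants Cyp8b1 gave no called dietary change. LKO arrays ran from 7.51 to 11.6 on CTRL (median 11.13) and from 9.70 to 11.62 on HFD (median 11.11), and KO arrays from 9.99 to 10.74 on CTRL (median 10.24) and from 9.09 to 11.48 on HFD (median 10.37). The fitted differences were -0.080 in LKO (95% confidence interval -0.69 to 0.53, adjusted p = 0.885) and 0.10 in KO (-0.54 to 0.74, adjusted p = 0.854). The response of WT exceeded that of LKO by 2.73 (SE 0.47, adjusted p = 0.000226) and that of KO by 2.55 (SE 0.48, adjusted p = 0.000338), while the responses of LKO and KO differed by -0.18 (adjusted p = 0.891). Without array weights WT minus LKO was 2.00 (adjusted p = 0.109), and in wash batch 2 neither WT minus LKO (2.61, adjusted p = 0.0606) nor WT minus KO (2.28, adjusted p = 0.0517) passed. The lowest LKO CTRL array (7.51) was the one with weight 0.189.

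Genotype moved Cyp8b1 one way on CTRL and the other way on HFD. On CTRL the gene was higher than in WT by 1.75 in LKO (3.36-fold, adjusted p = 0.00018) and by 0.91 in KO (1.87-fold, adjusted p = 0.0481), and in wash batch 2 neither passed (1.33 with adjusted p = 0.065, 0.37 with adjusted p = 0.663). The KO difference also missed the threshold without array weights (adjusted p = 0.0661) and without the filter on dim probes (adjusted p = 0.0928). On HFD it was lower than in WT by 1.65 in KO (log2 difference -1.65, 3.13-fold, adjusted p = 2.67e-05) and by 0.98 in LKO (-0.98, 1.97-fold, adjusted p = 0.0172). The LKO difference on HFD was -0.59 (adjusted p = 0.437) without array weights, -0.87 (adjusted p = 0.111) without the filter and -0.87 (adjusted p = 0.197) in wash batch 1. Ordered by mean level the groups ran WT CTRL (9.24), KO CTRL (10.27), KO HFD (10.34), LKO CTRL (10.66), LKO HFD (10.93) and WT HFD (11.53), and the lowest step alone (1.03) exceeded the larger SD of its 2 groups (0.81).

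The promoter of Cyp8b1 is shown because this gene had the response that differed most between WT and LKO among the members. RefSeq (GRCm38.p6) places the 250 bases before its start at chr9:121916306-121916555 on the minus strand. Capitals mark the letters CAAAGTCCA, as bound by HNF4A, at 67 to 59 bases before the start and TATAAA at 31 to 26 bases before it.
Cyp8b1 promoter: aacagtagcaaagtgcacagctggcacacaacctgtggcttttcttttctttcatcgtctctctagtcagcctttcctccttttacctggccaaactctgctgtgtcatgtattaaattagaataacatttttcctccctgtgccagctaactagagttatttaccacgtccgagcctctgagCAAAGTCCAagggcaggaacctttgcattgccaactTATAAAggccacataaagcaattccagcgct
On either strand, CAAAGTCCA stood in 0.384% and TATAAA in 12.4% of the 32851 promoter windows. The direct repeat AGGTCANAGGTCA, the arrangement that PPAR and RXR bind, stood in 0.0335% and in no member's window, and 6 of the 10 members had a window to search. These matches describe exact letters and show no binding. Forms that differ in a letter were not counted, so a miss does not show that a window lacks a site.

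Cyp7a1, the rate-limiting enzyme of the classical route, was called higher on HFD in WT only. Its level there ran from 8.53 to 12.18 on CTRL (median 10.3) and from 10.76 to 11.92 on HFD (median 11.34). The CTRL arrays spanned the whole HFD range, and the fitted difference was 1.35 (SE 0.44, 2.54-fold, adjusted p = 0.0253). LKO arrays ran from 9.42 to 11.31 on CTRL and from 9.49 to 10.62 on HFD, and KO arrays from 7.73 to 11.57 and from 9.10 to 11.7. These gave differences of -0.049 (adjusted p = 0.946) and 0.18 (adjusted p = 0.782), and the response of WT did not differ past the threshold from that of LKO (1.4, 95% confidence interval 0.23 to 2.56, adjusted p = 0.109) or KO (1.17, adjusted p = 0.175). The rise in WT was 0.99 (adjusted p = 0.139) without array weights, and 1.92 (adjusted p = 0.053) and 0.55 (adjusted p = 0.637) within the wash batches.

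On HFD all 8 LKO arrays of Cyp7a1 lay below all 8 WT arrays. This member alone had no overlap in that comparison, where 1.44% of all probes had none, and its fitted difference was -1.21 (SE 0.39, 2.31-fold, adjusted p = 0.0165). Without replicate 7 of WT HFD it was -0.995 (adjusted p = 0.0819), and without array weights -1.22 (adjusted p = 0.0709). A second Cyp7a1 probe was well above background on at most 4 of 8 arrays of any group and was also lower on HFD in LKO (-0.58, adjusted p = 0.000519) and in KO (-0.37, adjusted p = 0.0122) than in WT, whereas the brighter probe gave -0.70 (adjusted p = 0.135) for KO. No step in the order of the 6 group means exceeded the spread for this gene.

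Cyp27a1, the mitochondrial sterol 27-hydroxylase of the alternative route, was lower on HFD in both mutants. Its median was 11.29 on CTRL (10.21 to 11.57) and 10.79 on HFD (10.44 to 11.26) in LKO, and 11.02 on CTRL (10.46 to 11.19) and 10.32 on HFD (9.97 to 10.49) in KO. The highest KO HFD array lay just above the lowest KO CTRL array. WT medians were 11.45 (9.62 to 11.61) and 11.42 (10.35 to 11.75). The fitted differences were -0.51 in LKO (SE 0.12, 1.42-fold, adjusted p = 0.00265), -0.65 in KO (SE 0.13, 1.57-fold, adjusted p = 0.000257) and 0.097 in WT (adjusted p = 0.717). The WT response exceeded that of LKO by 0.61 (adjusted p = 0.0333) and that of KO by 0.75 (adjusted p = 0.00729). Without array weights the fall in LKO was -0.36 (adjusted p = 0.39), WT minus LKO 0.53 (adjusted p = 0.404) and WT minus KO 0.82 (adjusted p = 0.0709). WT minus LKO passed neither within a wash batch (0.37 and 0.81) nor without the filter on dim probes (adjusted p = 0.149).

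On HFD Cyp27a1 stood in the order WT, LKO, KO, and each pair differed. KO was below WT by 1.18 (difference -1.18, SE 0.13, 2.27-fold, adjusted p = 1.68e-10), LKO was below WT (-0.68, 1.60-fold, adjusted p = 8.98e-05) and KO was below LKO (-0.50, adjusted p = 0.000864). On CTRL KO was lower than WT (-0.43, adjusted p = 0.0192) and LKO was not called (-0.070, adjusted p = 0.771). Without array weights the LKO comparison with WT on HFD (-0.54, adjusted p = 0.0736) and the KO comparison with LKO on HFD (-0.53, adjusted p = 0.0529) missed the threshold, and the KO comparison with WT on CTRL was -0.25 (adjusted p = 0.363). The last passed neither within a wash batch (-0.43 in each) nor without the filter (adjusted p = 0.081).

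Cyp7b1, the oxysterol 7α-hydroxylase that follows CYP27A1 and is higher in males than in females in mouse liver, was lower on HFD in KO. KO levels ran from 14.43 to 16.31 on CTRL (median 15.32) and from 13.22 to 15.49 on HFD (median 13.96). One HFD array, replicate 2, stood apart at 15.49 among the otherwise lower KO HFD arrays. The difference was -1.57 (SE 0.31, 2.96-fold, adjusted p = 0.000276), and it was -0.78 (adjusted p = 0.254) in wash batch 1 and -2.21 (adjusted p = 0.000593) in wash batch 2. A second probe gave -1.61 (adjusted p = 0.000294).

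WT and LKO gave no called dietary change in Cyp7b1. Their medians were 14.86 on CTRL and 14.73 on HFD in WT, and 14.18 and 13.98 in LKO, with HFD arrays between 12.62 and 16.12. Fitted, HFD minus CTRL was -0.36 in WT (adjusted p = 0.542) and -0.50 in LKO (adjusted p = 0.239), and no difference of response between genotypes was called. KO CTRL arrays were above LKO CTRL arrays by 1.23 (2.34-fold, adjusted p = 0.00301), and on HFD LKO was below WT (-0.84, 1.79-fold, adjusted p = 0.0379), a difference that was -0.19 in wash batch 1 and -1.41 in wash batch 2 and was not called without array weights. Of 9 other genes with higher expression in male liver, 1 of which (Slco1a1) is also a bile acid carrier, all 9 were lower on HFD in KO, where 12.6% of all probes were lower, with Hsd3b5 at -3.64, and 5 were lower in LKO (2 without array weights), where 10.8% of all probes were lower. In WT 1 was lower (Gstp1) and 1 higher (Elovl3), beside 10.1% and 8.60% of all probes. The count in KO was 6 without array weights, 1 in wash batch 1 and 8 in wash batch 2, and 9 when any single array was left out. Their summed level ran from 18.55 to 19.17 on KO CTRL arrays and from 17.19 to 18.44 on KO HFD arrays. The part of this in the Cyp7b1 result was not tested.

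Cyp39a1, the 7α-hydroxylase of 24-hydroxycholesterol, was the member that stood furthest apart between genotypes. On CTRL the KO arrays ran from 7.10 to 8.14 (median 7.73), against 10.63 to 12.28 in WT (median 11.71) and 10.36 to 11.36 in LKO (median 10.84). KO overlapped neither group, while 6.15% of all probes did not overlap between KO and WT and 4.43% between KO and LKO. The differences were -3.95 from WT (SE 0.32, 95% confidence interval -4.6 to -3.3, 15.5-fold, adjusted p = 1.01e-13) and -3.05 from LKO (SE 0.29, 8.27-fold, adjusted p = 1.12e-11). LKO itself was below WT by 0.90 (difference -0.90, 1.87-fold, adjusted p = 0.0274), and this was -1.38 and -0.43 within the wash batches, neither called.

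The diet moved Cyp39a1 up in KO and down in WT. KO HFD arrays ran from 8.84 to 11.39 (median 10.25), all above the KO CTRL arrays, and this was the only member without overlap there (1.44% of all probes). The rise was 2.62 (SE 0.28, 95% confidence interval 2.05 to 3.19, 6.13-fold, adjusted p = 1.03e-08). WT HFD arrays ran from 10.21 to 11.09 (median 10.65), a fall of 0.93 on the log2 scale (difference -0.93, 1.90-fold, adjusted p = 0.035) that was -1.23 and -0.55 within the wash batches, neither called. LKO HFD arrays ran from 9.73 to 11.54 (median 11.22), and the difference of 0.36 was not called (adjusted p = 0.366). The response of WT differed from that of KO by -3.54 (SE 0.43, adjusted p = 1.49e-06), that of LKO from KO by -2.26 (SE 0.39, adjusted p = 0.000435) and that of WT from LKO by -1.28 (adjusted p = 0.0407), where the last was -1.07 and not called without array weights.

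On HFD KO remained below LKO in Cyp39a1 by 0.79 (difference -0.79, adjusted p = 0.0174, and -1.25 and -0.43 within the wash batches), while KO and WT did not differ past the threshold (-0.41, adjusted p = 0.235). Ordered by mean, only the step from KO CTRL to KO HFD (2.49) exceeded the larger SD of its 2 groups (0.98). Over the 48 arrays, after removal of the wash effect, the named gene most like it was Slc25a27 (Pearson r = 0.879), followed by Heatr5a (0.825). Slc25a27, which encodes the mitochondrial carrier UCP4, is the RefSeq neighbour of Cyp39a1 on chromosome 17, and its probe lies on the other strand in mm9.

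**Figure D2:**
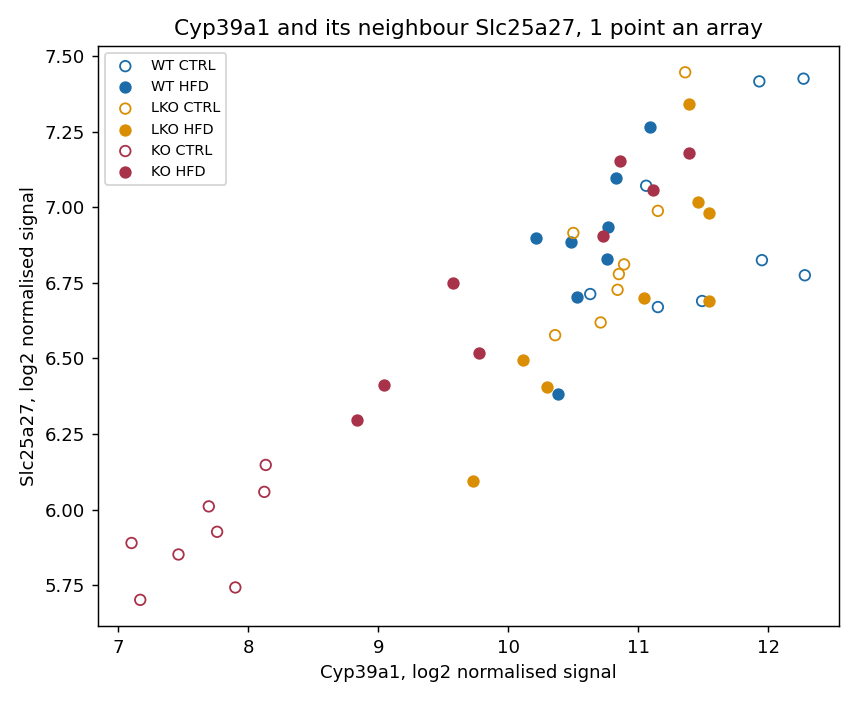
Log2 normalised signal of Slc25a27 (vertical axis) against Cyp39a1 (horizontal axis), 1 point an array, colour for genotype, open points CTRL and filled points HFD. The 8 KO CTRL arrays form a cluster of their own at the lower left, and the other 40 arrays have a Pearson r of 0.662.

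The Slc25a27 probe followed Cyp39a1 in the 3 comparisons that involve KO CTRL. Its group medians were 6.8 in WT CTRL, 6.89 in WT HFD, 6.80 in LKO CTRL, 6.70 in LKO HFD, 5.91 in KO CTRL and 6.83 in KO HFD. It was lower on CTRL in KO than in WT (-0.99, adjusted p = 1.77e-07) and than in LKO (-0.85, adjusted p = 7.06e-07), and higher on HFD than on CTRL in KO (0.93, adjusted p = 7.77e-07), with no overlap of groups in any of these. It was well above background on 3 of 8 KO CTRL arrays and on all arrays of the other groups. The arrays fall into separate clusters here, so the r over 48 arrays is a description only, and points share normalisation and array quality. Within the 6 groups r ran from 0.575 to 0.962 over 8 arrays each.

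The transcript of FXR kept to a narrow range. Nr1h4 had medians of 14.3 on CTRL and 14.62 on HFD in WT, 14.46 and 14.65 in LKO and 14.28 and 14.47 in KO, and its arrays ran from 13.63 to 14.85. It was higher on HFD in WT by 0.32 (adjusted p = 0.0351), with 0.23 in LKO (adjusted p = 0.0675) and 0.22 in KO (adjusted p = 0.0971). A second probe of the gene gave -0.060, 0.15 and 0.091, none of them called, so the rise in WT rests on the brighter probe, and it missed the threshold without array weights (0.33, adjusted p = 0.0613). The brighter probe gave no called genotype difference (-0.15 to 0.16), while the second was lower in LKO than in WT on CTRL (-0.35, adjusted p = 0.0128).

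Nr0b2, which encodes SHP, was higher in both mutants than in WT on CTRL. WT CTRL arrays ran from 8.71 to 9.87 (median 9.22), LKO CTRL arrays from 8.91 to 10.36 (median 9.87) and KO CTRL arrays from 9.33 to 10.73 (median 10.05). All these groups overlapped. The differences from WT were 0.81 in KO (SE 0.23, 1.75-fold, adjusted p = 0.00539) and 0.68 in LKO (SE 0.22, 1.61-fold, adjusted p = 0.0194). Within wash batches the KO difference was 1.24 (adjusted p = 0.00482) and 0.40 (adjusted p = 0.456), and the LKO difference passed neither within a batch, without array weights nor without replicate 3 of WT CTRL (adjusted p = 0.0592).

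On HFD Nr0b2 fell in LKO, and no genotype difference was called there. Medians on HFD were 9.39 in WT (8.56 to 9.80), 9.38 in LKO (8.47 to 10.08) and 9.59 in KO (8.98 to 10.09). The dietary difference was -0.66 in LKO (SE 0.19, 1.57-fold, adjusted p = 0.0133), -0.42 in KO (adjusted p = 0.126) and -0.012 in WT (adjusted p = 0.983). On HFD KO minus WT was 0.40 (adjusted p = 0.0983) and LKO minus WT 0.040 (adjusted p = 0.91). None of the responses differed between genotypes past the threshold (WT minus LKO 0.64, adjusted p = 0.16). The LKO fall was -0.47 (adjusted p = 0.122) without replicate 6 of LKO HFD and -0.45 (adjusted p = 0.319) without array weights.

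For Nr0b2, the gene that FXR is known to induce, the 250 bases before the start lie at chr4:133553126-133553375 on the plus strand of GRCm38.p6. Together with Abcb11, also an FXR target, this window was searched for the inverted repeat AGGTCANTGACCT that FXR and RXR bind, which stood in 0.00609% of windows and in neither of these. Only these exact letters were searched, and 2 of the 32851 windows held them. Forms that differ in a letter were not counted, so the miss does not show that either window lacks a site. Capitals in Nr0b2 mark CACGTG at 195 to 190 bases before the start (in 6.02% of windows) and TATAAA at 28 to 23, and in Abcb11 (chr2:69342617-69342866, minus strand) TGACCT at 56 to 51, the other-strand form of AGGTCA, which stood in 14% of windows.
Nr0b2 promoter: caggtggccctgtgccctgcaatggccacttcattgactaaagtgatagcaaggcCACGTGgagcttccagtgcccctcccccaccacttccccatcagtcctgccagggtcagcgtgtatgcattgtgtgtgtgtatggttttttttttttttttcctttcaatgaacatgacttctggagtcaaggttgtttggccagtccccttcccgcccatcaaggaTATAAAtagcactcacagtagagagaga
Abcb11 promoter: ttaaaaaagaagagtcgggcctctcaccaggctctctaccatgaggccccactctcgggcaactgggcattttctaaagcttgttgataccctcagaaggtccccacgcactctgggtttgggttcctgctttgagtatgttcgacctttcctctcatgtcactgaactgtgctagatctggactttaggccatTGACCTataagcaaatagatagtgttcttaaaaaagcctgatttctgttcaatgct

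Slc27a5, the bile acyl-CoA synthetase that activates returning bile acids for conjugation, moved by small amounts. Medians of its very bright probe lay between 17.41 and 17.59 in all 6 groups, and all arrays between 16.8 and 17.78. Quantile normalisation may leave little room to vary at such levels. It was lower on HFD in LKO (-0.22, SE 0.057, 1.17-fold, adjusted p = 0.00452), with 0.10 in WT (adjusted p = 0.325) and -0.029 in KO. The response of WT exceeded that of LKO by 0.33 (adjusted p = 0.0147). On CTRL LKO was above WT (0.17, adjusted p = 0.0463) and KO was below LKO (-0.18, adjusted p = 0.0254). With the processed signal and 75th percentile scaling together, Slc27a5 was also lower on HFD in KO (-0.43, adjusted p = 0.00091) and lower than WT on HFD in KO (-0.41) and in LKO (-0.35) and had no called difference on CTRL, and without array weights none of its 4 calls passed.

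Slc10a1, which encodes the uptake carrier NTCP, was read by a pair of probes that did not give the same result. The brighter probe (chr12:82056539-82056598 of mm9, minus strand) is annotated to RefSeq transcripts of 4 genes, and the 14 bases in capitals below are found in 9 other probes of 9 other gene names. The dimmer probe (chr12:82054180-82054239, minus strand) does not hold them. Both stretches are printed to show this.
Slc10a1 brighter probe, bases 3 to 32: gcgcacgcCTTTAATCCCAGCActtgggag
Slc10a1 dimmer probe, bases 31 to 60: ggaaataaactacaactggtagttctaact
The brighter probe stayed between 18.27 and 18.59 on every array, near the top of the scale, where quantile normalisation leaves little room to vary. It was called in 1 of 12 comparisons, higher in KO than in WT on HFD by 0.085 (adjusted p = 0.0146), a sign that turned with the processed signal and 75th percentile scaling together (-0.25) and with the dimmer probe (-0.39).

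By the dimmer probe Slc10a1 was lower on HFD in both mutants. LKO arrays ran from 13.85 to 15.8 on CTRL (median 15.54) and from 14.79 to 15.11 on HFD (median 14.96), and KO arrays from 14.79 to 15.45 (median 15.16) and from 14.59 to 15.3 (median 14.76). In LKO only 1 CTRL array, replicate 1 with weight 0.189, lay below any HFD array, and in KO the groups overlapped widely. The differences were -0.61 in LKO (SE 0.13, 1.53-fold, adjusted p = 0.000839), -0.38 in KO (1.30-fold, adjusted p = 0.0376) and 0.087 in WT (adjusted p = 0.769, medians 15.2 and 15.05). The LKO response was lower than that of WT (WT minus LKO 0.70, adjusted p = 0.022). On HFD KO was below WT (-0.39, 1.31-fold, adjusted p = 0.015), which without replicate 8 of WT HFD had adjusted p = 0.0965. Without array weights none of these 4 differences passed (LKO -0.40 and KO -0.34 on HFD, WT minus LKO 0.61, KO against WT -0.26), and neither the KO fall nor WT minus LKO passed within a wash batch or without the filter on dim probes (adjusted p = 0.113 and 0.0853). Read by this probe the members called on HFD numbered 5 of 10 in LKO and in KO, where 20.2% and 24.8% of all probes were called.

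Abcb11, the bile salt export pump of the canalicular membrane, was lower on HFD in all 3 genotypes and lower in both mutants on either diet. Its median was 14.9 on CTRL (14.39 to 15.33) and 14.4 on HFD (13.81 to 14.92) in WT. In LKO it was 14.49 (14.2 to 14.65) and 14.1 (13.46 to 14.29), and in KO 14.17 (13.86 to 14.86) and 13.58 (13.27 to 13.94). The diet groups overlapped widely in WT and only at their ends in LKO and KO. The differences were -0.56 in WT (SE 0.13, 1.48-fold, adjusted p = 0.00166), -0.47 in LKO (SE 0.11, 1.38-fold, adjusted p = 0.00225) and -0.63 in KO (SE 0.12, 1.55-fold, adjusted p = 0.000105). No difference between these responses was called, with WT minus LKO at -0.096 (95% confidence interval -0.44 to 0.25) and WT minus KO at 0.070 (-0.28 to 0.42). The LKO fall had adjusted p = 0.0634 without array weights, and in wash batch 1 it was -0.30 (adjusted p = 0.283). The WT fall was -0.50 (adjusted p = 0.159) in wash batch 2.

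Between genotypes Abcb11 ran in the order WT, LKO, KO. On CTRL KO was below WT by 0.81 (difference -0.81, SE 0.13, 1.75-fold, adjusted p = 3.26e-06) and LKO was below WT (-0.54, 1.46-fold, adjusted p = 0.00119), with KO and LKO not separated past the threshold (-0.27, adjusted p = 0.0958). On HFD KO was below WT (-0.88, SE 0.11, 1.84-fold, adjusted p = 1.77e-08) and below LKO (-0.43, adjusted p = 0.00142), and LKO was below WT (-0.45, adjusted p = 0.00296). KO against WT passed within each wash batch on both diets. LKO against WT did not pass on HFD in batch 1 (-0.30, adjusted p = 0.239) or on CTRL in batch 2 (-0.51, adjusted p = 0.0738). KO against LKO on HFD did not pass in batch 2 (-0.41, adjusted p = 0.0713). Ordered by mean, the steps from KO HFD to LKO HFD (0.42 against 0.25) and from LKO CTRL to WT CTRL (0.45 against 0.34) exceeded the larger SD of their groups, and the other steps did not. Tmem30a (r = 0.864), Tm2d3 (0.859) and Pnpla7 (0.856) had the levels most like it over the 48 arrays.

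**Figure D3:**
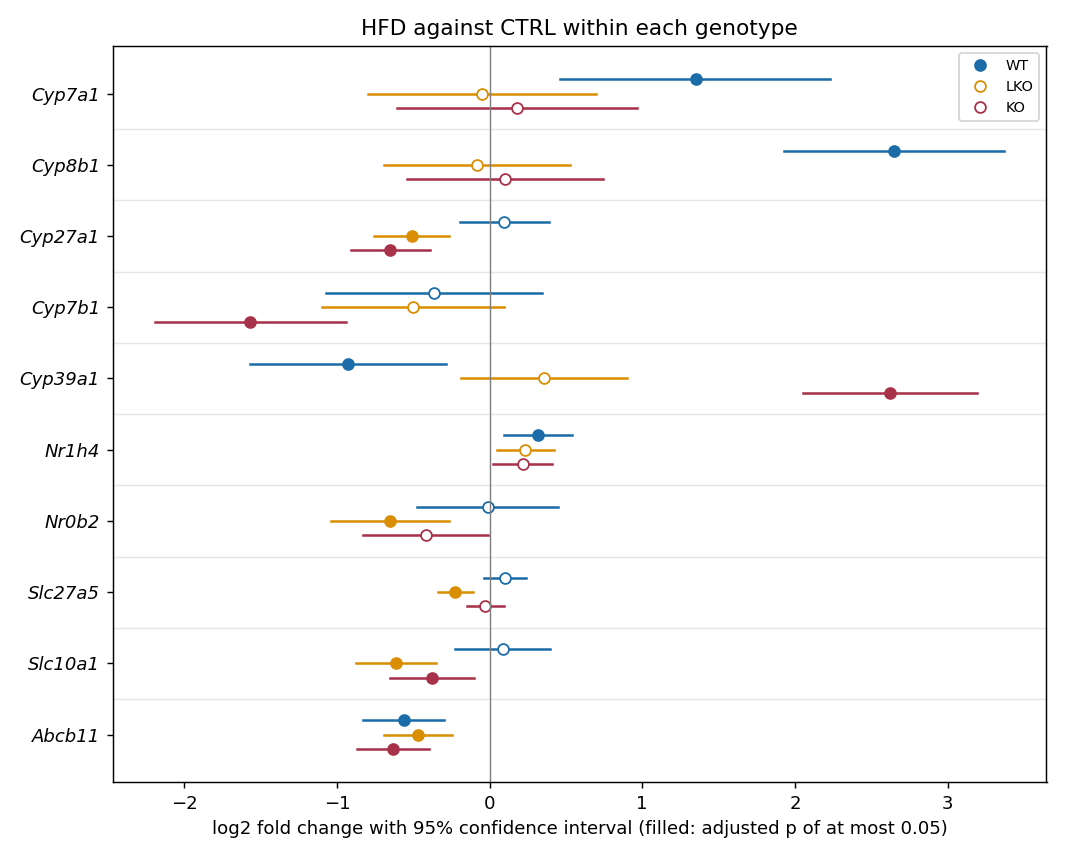
Fitted log2 fold change of HFD against CTRL for each member in WT, LKO and KO, with 95% confidence intervals, n = 8 arrays a group. Cyp8b1 stands at 2.65 in WT and near 0 in both mutants, Cyp39a1 at 2.62 in KO and below 0 in WT, and Abcb11 below 0 in all 3.

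Against WT, more Kupffer and stellate cell markers were called higher in the mutants on HFD than on CTRL. Cyp27a1 and Abcb11 were lowest in the mutant HFD groups. On HFD in KO 4 of 6 Kupffer cell markers and 6 of 6 stellate cell markers were higher than on CTRL, in LKO 1 and 3, and in WT 0 of either (limma, adjusted p, and also 0 at an unadjusted p under 0.05), where 12.2%, 9.46% and 8.60% of all probes were higher. Against WT on HFD, 5 Kupffer and 6 stellate markers were higher in KO and 3 and 5 in LKO, where 21.8% and 13.3% of all probes were higher. On CTRL 2 Kupffer markers and 1 stellate marker were already higher than in WT in KO and in LKO, where 15.6% and 11.3% of all probes were higher. Summed Kupffer markers had medians of 14.58 on KO CTRL (14.02 to 14.86) and 15.2 on KO HFD arrays (14.73 to 15.78), and summed stellate markers 15 (13.98 to 15.84) and 15.67 (15.37 to 15.99). WT HFD arrays had lower medians (14.39 and 14.34) but reached 15.96 and 16.45, above the highest KO HFD arrays. In the stellate sum an LKO CTRL array also did (16.44). Of the 6 hepatocyte markers Tat was lower (-0.60, adjusted p = 0.0424) and Apoa1 higher (0.23, adjusted p = 0.00774) on HFD in KO. The part of these markers in the lower levels was not tested.

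Counted over the 10 genes, the genotype comparisons on CTRL called 5 in KO against WT (2 higher, 3 lower, beside 34.2% of all probes, 15.6% higher and 18.7% lower), 5 in LKO against WT (3 higher, 2 lower, beside 24.7%, 11.3% higher and 13.4% lower) and 4 in KO against LKO (1 higher, 3 lower, beside 25.2%, 12.2% higher and 13.0% lower). Cyp8b1 and Nr0b2 were the higher and Abcb11 and Cyp39a1 the lower genes that both mutants had in common against WT. On HFD 4 were called in KO against WT (1 higher, 3 lower, beside 45.7% of all probes, 21.8% higher and 24.0% lower), and with the dimmer Slc10a1 probe all 4 were lower. In LKO against WT 5 were called (26.7% of all probes, 13.3% higher and 13.4% lower), and in KO against LKO 3, all lower (30.6%, 15.2% higher and 15.4% lower). All 5 called genes were lower in LKO than in WT on HFD (Cyp7a1, Cyp8b1, Cyp27a1, Cyp7b1 and Abcb11). The median of the 10 genes was -0.54 in KO and -0.30 in LKO against WT on HFD, beside -0.027 and -0.018 over all probes, and it was 0.016 and 0.069 on CTRL. Without array weights the CTRL counts were 3, 2 and 2 in the order above, and on HFD LKO against WT had 1, with 0 in wash batch 1. With the processed signal and 75th percentile scaling the share of higher calls among all called probes in LKO against WT on HFD was 37.8% in place of 49.7%. In KO against WT on HFD this share was 38% in place of 47.6%, and 7 members were called in place of 4.

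**Figure D4:**
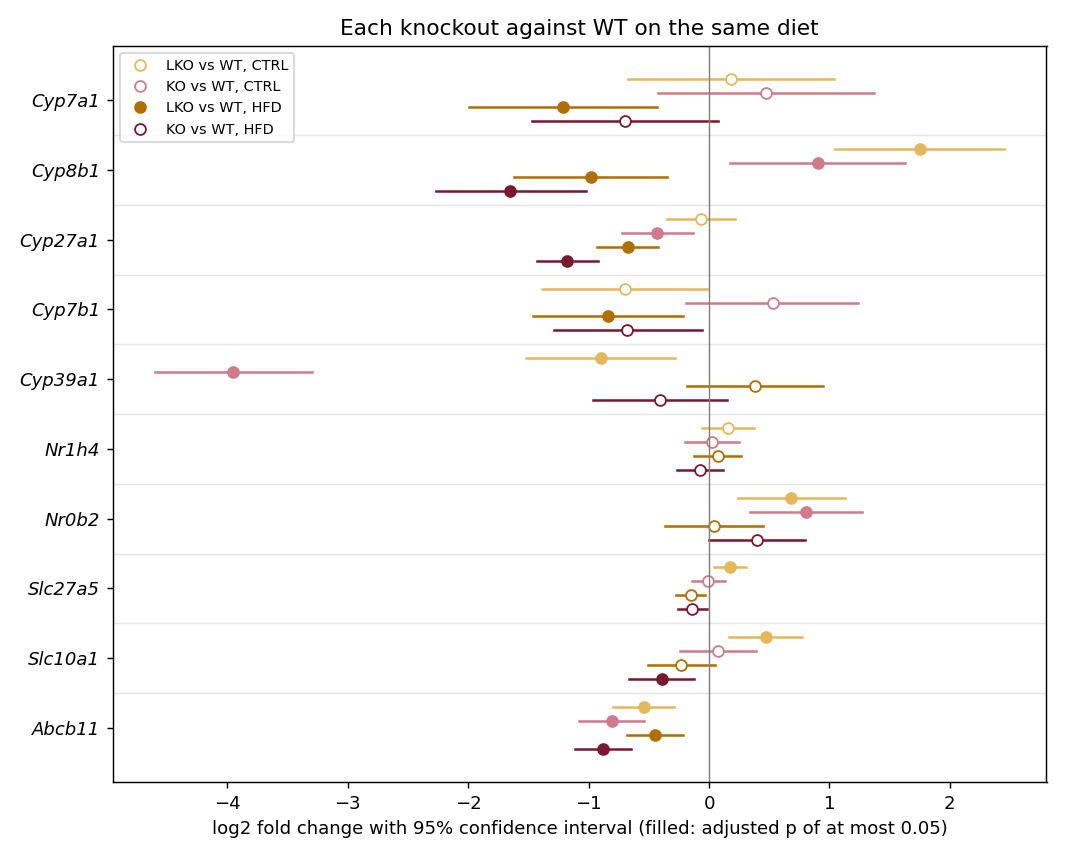
Fitted log2 fold change of LKO against WT and of KO against WT for each member on CTRL and on HFD, with 95% confidence intervals, n = 8 arrays a group. Cyp39a1 stands at -3.95 in KO against WT on CTRL, and Cyp8b1 is above 0 against WT on CTRL and below 0 on HFD in both mutants.

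The dietary response differed between WT and LKO in 4 of the 10 genes (Cyp8b1, Cyp27a1 and Slc27a5 more positive in WT, Cyp39a1 more negative), where 10.4% of all probes differed (5.79% more positive, 4.62% more negative in WT). Between WT and KO it differed in Cyp8b1, Cyp27a1 and Cyp39a1, 3 genes against 14.3% (7.42% and 6.93%), and between LKO and KO in Cyp39a1 alone, 1 gene against 3.42% (1.30% and 2.12%). The share of all called probes with the more positive response in WT was 55.6% against LKO and 51.7% against KO, and 68.6% and 65.5% with the processed signal and 75th percentile scaling. The count of 4 for WT against LKO was 0 without array weights, 1 without the filter on dim probes, 1 and 0 within the wash batches, and 2 without the wash term, with slide as a block or without any one of replicates 5 and 8 of WT HFD, 4 and 6 of LKO CTRL and 5 of LKO HFD.

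Beyond the 10 members, a list of 48 genes of the same pathway was read, of which 43 were tested. On HFD 17 of the 43 were called in WT (12 higher, 5 lower, beside 18.7% of all probes), 15 in LKO (9 and 6, beside 20.2%) and 14 in KO (10 and 4, beside 24.8%). Over the alternatives other than leaving out a single array these counts ran from 4 to 18, 4 to 18 and 6 to 15. Against WT, 23 were called in KO and 18 in LKO on CTRL (34.2% and 24.7% of all probes), and 27 and 18 on HFD (45.7% and 26.7%). Over the same alternatives these ran from 15 to 25 and 9 to 19 on CTRL, and from 14 to 30 and 6 to 20 on HFD, where LKO had 9 without array weights. The list's median on HFD was 0.073 in WT and LKO and 0.053 in KO.

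**Figure D5:**
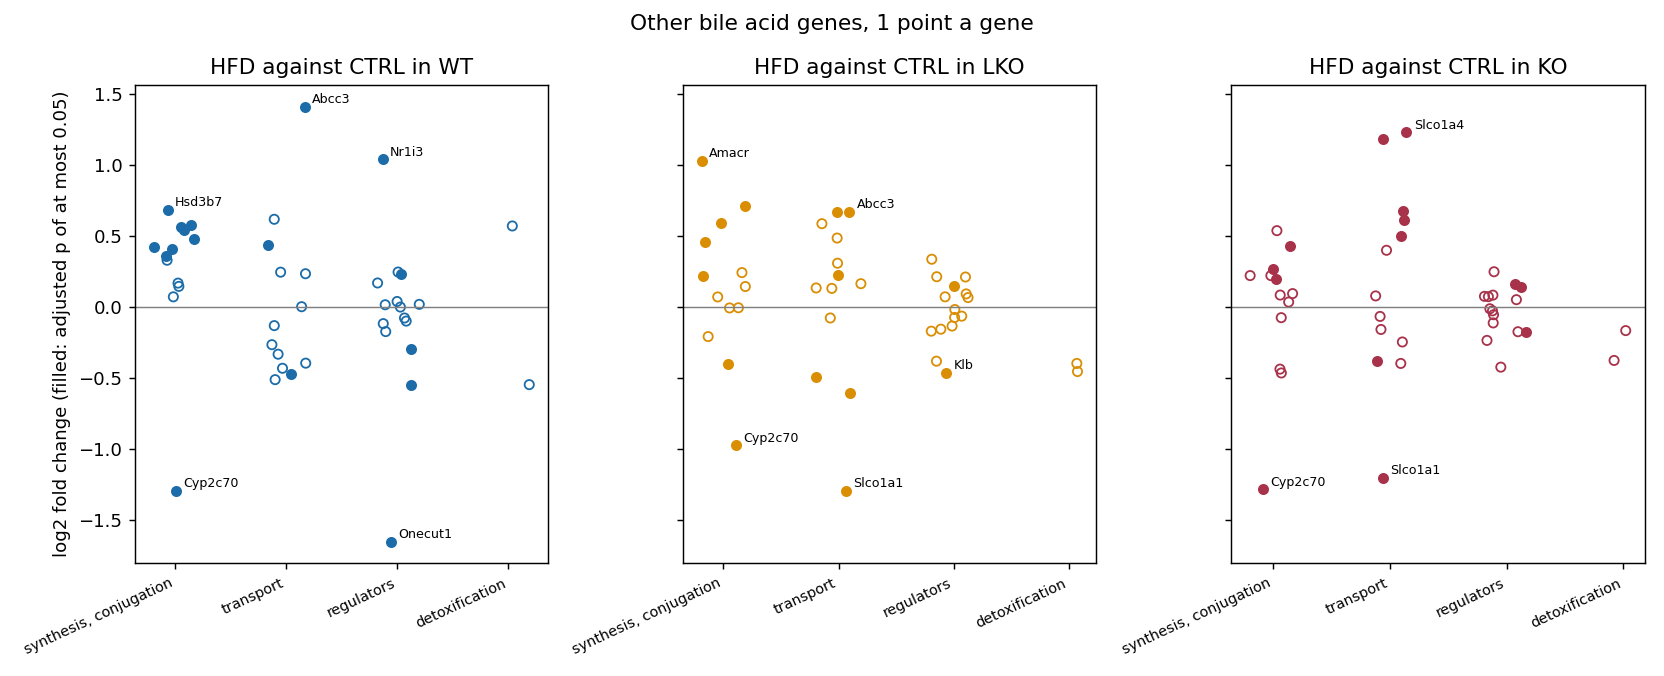
Fitted log2 fold change of HFD against CTRL for the tested genes of the pathway list in WT, LKO and KO (1 panel each), 1 point a gene in columns for synthesis and conjugation, transport, regulators and detoxification, filled where adjusted p was at most 0.05. The WT panel holds 8 filled points above 0 for synthesis and conjugation, and Cyp2c70 lies low in every panel (-1.29, -0.97 and -1.28).

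Of 13 other synthesis and conjugation genes, 8 were higher and 1 lower on HFD in WT (8.60% and 10.1% of all probes), with a median of 0.41. The 8 were Hsd3b7 (0.68, adjusted p = 3.04e-05), which forms the 3-oxo intermediate of the sterol ring, Akr1d1 (0.58), which reduces it, Acox2 (0.54) and Hsd17b4 (0.57) of peroxisomal side-chain shortening, the conjugating enzyme Baat (0.36), Acot8 (0.42), the acyl-CoA synthetase Slc27a2 (0.48) and the peroxisomal carrier Abcd3 (0.41). In LKO 5 were higher and 2 lower (9.46% and 10.8% of all probes), and in KO 3 and 1 (12.2% and 12.6%). The response of WT exceeded that of LKO in Hsd3b7, Akr1d1 (0.98, adjusted p = 0.00465), Acot8, Slc27a2 (0.48, adjusted p = 0.000941) and Abcd3, and that of KO in Hsd3b7, Baat, Acot8, Slc27a2 and Abcd3 (0.48, adjusted p = 0.00793). Without array weights none of the 43 other bile acid genes was called in either difference of response, where Akr1d1 had adjusted p = 0.189 and Slc27a2 0.051 against LKO and Abcd3 0.0971 against KO. On HFD 8 of the 13 were lower and 2 higher in KO than in WT (24.0% and 21.8% of all probes), Abcd3 by -1.05 (adjusted p = 1.41e-14) among them. Several of these genes also serve fatty acid oxidation in peroxisomes.

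Cyp2c70, which makes the muricholic acids of mouse bile, was lower on HFD in the 3 genotypes. WT arrays ran from 15.09 to 17.04 on CTRL and from 14.91 to 16.77 on HFD, KO arrays from 15.81 to 17.32 and from 14.65 to 15.72, and LKO arrays from 14.92 to 16.41 and from 14.08 to 15.57. Only in KO did the groups not overlap. Cyp2c70 differences were -1.29 in WT (adjusted p = 0.000272), -0.97 in LKO (adjusted p = 0.00113, and 0.0503 without array weights) and -1.28 in KO (adjusted p = 6.23e-05). Amacr, the racemase that acts before side-chain shortening, rose on HFD in LKO (1.03, adjusted p = 0.000129) from a CTRL level that was below WT (-1.25, adjusted p = 2.8e-05).

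Among 13 tested transporters, the basolateral efflux pump Abcc3 was higher on HFD in the 3 genotypes and higher in both mutants on CTRL. Its medians were 12.68 and 14.34 in WT, 14.03 and 14.7 in LKO and 14.09 and 14.78 in KO. Abcc3 rose by 1.41 in WT (adjusted p = 7.15e-05), 0.67 in LKO (adjusted p = 0.0195) and 0.67 in KO (adjusted p = 0.0207), and the responses were not called different. The rise in WT was 0.86 (adjusted p = 0.0665) without array weights. Slco1a4, an organic anion uptake carrier, was higher than in WT on HFD by 2.06 in KO (adjusted p = 6.38e-10) and 1.69 in LKO (adjusted p = 5.16e-07). On HFD the canalicular genes Abcg5 and Abcg8 were lower in both mutants than in WT, with Abcg8 at -1.21 in LKO (adjusted p = 3.35e-08), as was Abcc2 in KO.

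Among 15 tested regulators, Nr1i3, which encodes the xenobiotic receptor CAR, rose on HFD in WT by 1.04 (adjusted p = 1.85e-05) and was higher on CTRL in KO (1.57, adjusted p = 2.7e-10) and LKO (1.11, adjusted p = 1.62e-06) than in WT. Its response in WT exceeded that in LKO by 0.71 (adjusted p = 0.0314) and that in KO by 0.80 (adjusted p = 0.0133). Both missed the threshold without array weights (0.48 with adjusted p = 0.511, 0.71 with adjusted p = 0.158), without the filter on dim probes and within each wash batch. Onecut1 (HNF6) fell on HFD in WT (-1.65, adjusted p = 0.031), by -2.82 in wash batch 1 and -0.999 in wash batch 2 (adjusted p = 0.357), and missed the threshold without the filter (adjusted p = 0.0523). Fgf15 of the ileal feedback loop was not tested here, and its hepatic receptor Fgfr4 was lower on HFD in WT. Of the 2 tested detoxification genes Cyp3a11 was lower in KO than in WT on CTRL (-1.86, adjusted p = 0.00252) and on HFD (-1.69, adjusted p = 0.000996, but -0.997 with adjusted p = 0.226 without array weights), and Sult2a8 was lower in LKO than in WT on HFD.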

How the data were processed

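Total liver RNA was labelled with Cy3 and hybridised to one-colour Agilent arrays. The authors extracted the deposited spot intensity values with Agilent Feature Extraction 10.10.1.1 and named limma for normalisation. They also deposited log2 values for 32816 probes, which over 32815 shared probes correlated at r = 0.9994 to 0.9995 with the values computed here. Median signal intensity per array was 56 to 91 over a background of 20 to 36, and the number of arrays limits the precision.

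From 59305 non-control spots, outlier spots were left out, log2 median signals were averaged per probe, and a probe was kept where, in 1 group or more, 4 of the 8 arrays or more read it well above background (33323 probes, 22029 gene names). After quantile normalisation, limma 3.58.1 (R 4.3.3) was fitted to all 6 groups with a wash batch term and array weights. Differences were adjusted by Benjamini-Hochberg within each of the 12 comparisons. In data simulated for HFD against CTRL in WT, 96% of 200 probes changed by 1 on the log2 scale were recovered and 3.52% of calls were false. The simulated noise was normal and independent between probes, took the fitted array weights as true and held no wash effect. Only these 200 of 33323 probes were changed. The result checks the code on data of the model's own form and gives no error rate for the real calls.

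A gene was read by its tested probe of highest mean signal, and other probes are given where direction or call differed. All 10 members were named, with Ppara as label check, up to 4 called pathway genes of largest absolute change per comparison, and up to 3 most alike gene names at r of at least 0.8, and further pathway genes were named where a count of a group is given. The members and all lists were chosen with earlier results of these data known. Promoter windows came from RefSeq. Replicate numbers shared between groups did not pair the arrays: 120 same-number pairs had correlations from -0.449 to 0.694 with a median of 0.0223, and 35 exceeded 0.1. Alternatives covered weights, filter, background correction, processed signal with 75th percentile scaling, batch term, probe choice, replicate block and single arrays. Removal of the 5 arrays of weight under 0.5 and the reading of Slc10a1 by its dimmer probe were added after seeing the data.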

Additional observations from a re-analysis of the deposited data

Results flagged for a closer look

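Across 66 groups of 8 arrays (11 probes in 6 groups), 9 held 1 array separated from the rest by more, as a share of the group's range, than Dixon's critical value at the 95% level for 8 values, a gap that chance gives in about 1 in 20 groups. Of these, 7 were on arrays of low weight. LKO CTRL replicate 1 (weight 0.189) was low in Cyp8b1 (7.51, group median 11.13), Cyp27a1 (10.21, median 11.29) and the dimmer Slc10a1 probe (13.85, median 15.54). WT CTRL replicate 6 (weight 0.208) was low in Cyp27a1 (9.62, median 11.45) and Slc27a5 (16.8, median 17.45), and WT HFD replicate 6 (weight 0.372) was low in Cyp27a1 (10.35, median 11.42). KO CTRL replicate 3 (weight 0.419) was low in Cyp7a1 (7.73, median 10.37). On arrays of ordinary weight, KO HFD replicate 2 was high in Cyp7b1 (15.49, median 13.96) and LKO HFD replicate 5 was low in Abcb11 (13.46, median 14.1).

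Dietary responses that differed between genotypes by the test of the difference itself were those of Cyp8b1 (WT minus LKO 2.73, WT minus KO 2.55), Cyp27a1 (0.61 and 0.75), Cyp39a1 (WT minus LKO -1.28, WT minus KO -3.54, LKO minus KO -2.26), Slc27a5 (WT minus LKO 0.33) and Slc10a1 by its dimmer probe (WT minus LKO 0.70).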

How the results depend on the processing

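Of 47 called differences of the members, 10 kept direction and call under every alternative and without each of the 48 arrays in turn: Cyp8b1 on HFD in WT (2.29 to 3.13 over the alternatives) and KO against WT on HFD, Cyp27a1 in KO against WT on HFD, Cyp39a1 on HFD in KO, in KO against WT (-4.38 to -3.47) and LKO on CTRL and in WT minus KO, and Abcb11 on HFD in KO and in KO against WT on both diets. A further 11 lost the call only within a wash batch. Without array weights 25 were lost, without the filter 16, under the replicate block 5 and without some single array 17, and the causes were not tested.

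Counts of members called moved as follows. Except for the processed signal, the share of all probes called under the same alternative is not set beside the counts here or in the next paragraph. Whether calls over all probes fell alike was not tested. Without array weights they were 3 (HFD in WT), 0 (HFD in LKO), 3 (KO against WT, CTRL), 2 (LKO against WT, CTRL), 2 (KO against LKO, CTRL), 1 (LKO against WT, HFD), 1 (KO against LKO, HFD) and 0 (WT minus LKO). Without the filter, which tested 56605 probes, they were 2, 3 (KO against WT, CTRL), 3 (LKO against WT, CTRL), 2, 3 (LKO against WT, HFD) and 1 (WT minus LKO), the first for HFD in WT and the fourth for KO against LKO on CTRL. Slide as a block gave 3 for HFD in WT and 2 for WT minus LKO, no wash term 3 for LKO against WT on CTRL and 2 for WT minus LKO, and the authors' log2 values without a wash term 2 for KO against LKO on CTRL and 2 for WT minus LKO. The processed signal with the 75th percentile gave 7 for KO against WT on HFD, where 16356 of 33323 probes were called. With replicate number as a block, KO against WT on CTRL had 3, and the values lost were Cyp8b1 on CTRL (0.82, adjusted p = 0.0583) and LKO against WT on HFD (-0.77), and 3 of Cyp27a1, while calls were gained for Nr0b2 on HFD in KO (-0.53, adjusted p = 0.0271), Nr1h4 on HFD in LKO (0.27, adjusted p = 0.0271) and Cyp8b1 in KO against LKO on HFD (-0.79, adjusted p = 0.0254).

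Within wash batch 1 counts were 2 (HFD in WT), 0 (HFD in LKO), 2 (HFD in KO), 2 (LKO against WT, CTRL), 1 (KO against LKO, CTRL), 0 (LKO against WT, HFD), 1 (WT minus LKO) and 0 (LKO minus KO). In batch 2 they were 1 (HFD in WT), 2 (HFD in LKO), 2 (KO against WT, CTRL), 0 (LKO against WT, CTRL), 2 (KO against LKO, CTRL), 1 (KO against LKO, HFD) and 0 (WT minus LKO). Without single arrays the counts ran from 2 to 5 (HFD in WT), 3 to 4 (HFD in LKO), 4 to 5 (HFD in KO), 3 to 5 (KO against WT, CTRL), 2 to 5 (LKO against WT, CTRL), 2 to 5 (KO against LKO, CTRL), 4 to 6 (KO against WT, HFD), 3 to 6 (LKO against WT, HFD), 2 to 5 (KO against LKO, HFD), 2 to 5 (WT minus LKO), 3 to 4 (WT minus KO) and 1 to 1 (LKO minus KO).

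Changes of sign in which either value was called numbered 14, all of Slc10a1, whose brighter probe is shared with other transcripts. Uncalled values of other members also changed sign, such as Cyp7a1 on HFD in KO (0.18, and -0.57 in wash batch 1). By the mean of its probes and by the dimmer probe the values were -0.30 and -0.61 (HFD in LKO), -0.18 and -0.38 (HFD in KO), 0.22 and 0.47 (LKO against WT, CTRL), -0.19 and -0.40 (KO against LKO, CTRL), -0.16 and -0.39 (KO against WT, HFD) and 0.31 and 0.70 (WT minus LKO). With the processed signal and 75th percentile they were -0.30 (HFD in KO) and -0.25 (KO against WT, HFD).

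Single arrays ended calls of Cyp27a1 in KO against WT on CTRL (replicates 2 and 5 of WT CTRL, adjusted p up to 0.0594), Cyp8b1 in LKO against WT on HFD (replicates 7 and 8 of WT HFD, up to 0.0909) and Slc27a5 in KO against LKO on CTRL (LKO CTRL 5 and KO CTRL 6, up to 0.0804). No scaling moved the median of all probes by more than 0.0594.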

Other observations

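These values were chosen after the data were seen and carry no explanation. Of the 6 RefSeq neighbours of Cyp39a1 on chromosome 17, Pla2g7 was higher in KO than in WT on CTRL (1.55) and on HFD than on CTRL in KO (0.76), while the KO against WT differences of Rcan2 (0.63), Enpp5 (0.54) and Enpp4 (0.23) on CTRL also ran against that of Cyp39a1. Tdrd6 was not tested. Of the tested neighbours only Slc25a27 was lower in KO than in WT on CTRL, as Cyp39a1 was, by both of its probes, the second of which was mostly not well above background (-0.44 in KO against WT on CTRL, 0.44 on HFD in KO).

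Among the members, over the 48 arrays after removal of the wash effect, the closest pair was Slc27a5 with the dimmer Slc10a1 probe (r = 0.786), followed by Cyp27a1 with Abcb11 (0.70), and Cyp39a1 ran against Nr0b2 (-0.535) and Cyp7b1 (-0.467). Cyp7a1 and Cyp8b1, which both rose on HFD in WT, had r = 0.151. Arrays share quality and normalisation, and the groups form clusters. Gene names most like single members were Hsd17b10 for Cyp8b1 (0.85), Marc1 for Cyp27a1 (0.895), Klhl2 for Cyp7b1 (0.885), Ndufb5 for Slc27a5 (0.815) and Pdk1 for the dimmer Slc10a1 probe (0.862). Cyp7a1, Nr1h4 and Nr0b2 had none at 0.8.

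Of 6 cholangiocyte markers 1 (Sox9) was higher on HFD in LKO, and of 6 endothelial markers 2 were higher in LKO and 2 in KO, where 9.46% and 12.2% of all probes were higher. Both tested exocrine pancreas markers, Cela1 and Ctrb1, were lower on HFD in KO, and 1 of them (Ctrb1) also in LKO, where 12.6% and 10.8% of all probes were lower.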
